A study of Homo sapiens with 9 samples.

Results

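A set of 41 human genes that copy DNA in S phase, or that start and supply that process, was described in RNA of HaCaT cells, an established immortalised keratinocyte line. The genes were taken as a list by symbol and found in the count files through their Ensembl IDs. All 41 were present among the 78899 gene IDs listed, all are protein-coding, and all passed the filter on low counts, with at least 111 counts in every library. By role the list holds 11 genes of origin licensing, 6 of helicase activation, 14 of polymerases, clamp and strand processing, 4 of nucleotide supply, 3 of chromatin and checkpoint, and 3 regulators of the G1 to S transition.

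The libraries fall into 3 groups of 3. BD and NBD are subpopulations of HaCaT that were separated by fluorescence-activated sorting, and the control group is labelled as the cell line itself. The sources used here do not spell out the names BD and NBD, the stain or gate behind them, or whether the control cells also passed through the sorter. All cells share the same line, which was kept in high-glucose medium with low-calcium serum, and none carries a labelled treatment or time point. The stated interest of the study was in transcriptional differences linked to progenitor states. Total counts ran from 17128797 to 29512856 per library. No label ties a replicate to its own culture, so the p-values below measure the spread between libraries, which may be technical.

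Before a chromosome can be copied, its origins are licensed in G1. The origin recognition complex, CDC6 and CDT1 load rings of MCM2 to MCM7 onto DNA, and geminin (GMNN) later blocks CDT1 so that no origin is licensed again in the same cycle. In S phase MCM10, CDC45 and the GINS complex turn the ring into an active helicase, and polymerases alpha, delta and epsilon follow with the sliding clamp PCNA and its loader, the RFC complex. Most of these genes are transcribed under the E2F factors. These are released from the retinoblastoma protein as cyclins and their kinases, cyclin E among them, become active in G1. In the epidermis, cells of the basal layer replicate their DNA and cells that leave it stop doing so, which is why these genes are commonly read as a sign of proliferation in keratinocytes. RNA of a whole library was measured, so a smaller share of cells in S phase and less of an RNA per cell cannot be told apart.

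The promoters of 10 members are shown. E2F1 codes for an E2F factor, and the 9 others are among the members with the largest differences described further on. The first 7 hold an E2F word, and ORC6, RRM2 and TK1 are shown as members with none. Each run is the 200 bases before the annotated start of transcription from RefSeq on GRCh38.p14, written 5′ to 3′ on the strand of the gene. Capitals mark every match to an E2F word on either strand. The words searched were TTTGGCGC, TTTCCCGC, TTTCGCGC and TTTGCCGC, and matches that overlap were each counted.
MCM6: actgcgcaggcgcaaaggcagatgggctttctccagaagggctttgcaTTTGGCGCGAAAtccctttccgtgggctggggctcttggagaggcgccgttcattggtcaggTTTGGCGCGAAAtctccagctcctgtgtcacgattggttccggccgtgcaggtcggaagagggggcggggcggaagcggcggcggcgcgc
MCM7: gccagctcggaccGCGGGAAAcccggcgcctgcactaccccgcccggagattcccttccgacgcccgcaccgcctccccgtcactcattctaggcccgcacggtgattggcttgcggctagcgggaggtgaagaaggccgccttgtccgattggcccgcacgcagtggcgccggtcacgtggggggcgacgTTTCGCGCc
CDT1: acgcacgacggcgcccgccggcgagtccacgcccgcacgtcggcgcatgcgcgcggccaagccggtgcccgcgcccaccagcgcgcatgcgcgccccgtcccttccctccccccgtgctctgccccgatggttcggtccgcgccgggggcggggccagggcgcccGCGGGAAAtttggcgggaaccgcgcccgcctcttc
E2F1: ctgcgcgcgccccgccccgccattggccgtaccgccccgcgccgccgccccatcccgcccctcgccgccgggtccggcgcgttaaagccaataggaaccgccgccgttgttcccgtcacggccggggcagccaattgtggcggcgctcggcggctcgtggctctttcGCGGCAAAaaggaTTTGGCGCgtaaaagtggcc
POLA1: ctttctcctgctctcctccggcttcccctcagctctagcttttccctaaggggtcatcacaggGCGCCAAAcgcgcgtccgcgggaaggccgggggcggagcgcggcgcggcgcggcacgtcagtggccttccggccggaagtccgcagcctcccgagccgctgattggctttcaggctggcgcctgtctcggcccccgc
RFC3: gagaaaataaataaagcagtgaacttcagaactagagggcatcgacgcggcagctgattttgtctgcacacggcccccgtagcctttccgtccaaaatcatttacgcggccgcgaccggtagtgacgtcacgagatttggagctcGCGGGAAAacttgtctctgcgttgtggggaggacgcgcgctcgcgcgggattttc
TYMS: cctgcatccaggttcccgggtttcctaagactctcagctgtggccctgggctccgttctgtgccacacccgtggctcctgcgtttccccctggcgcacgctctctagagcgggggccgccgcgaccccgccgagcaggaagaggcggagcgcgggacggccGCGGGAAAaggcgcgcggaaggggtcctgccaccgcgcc
ORC6: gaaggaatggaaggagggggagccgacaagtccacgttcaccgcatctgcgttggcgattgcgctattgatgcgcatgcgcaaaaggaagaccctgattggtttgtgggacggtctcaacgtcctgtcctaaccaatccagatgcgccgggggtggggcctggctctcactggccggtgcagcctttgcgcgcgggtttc
RRM2: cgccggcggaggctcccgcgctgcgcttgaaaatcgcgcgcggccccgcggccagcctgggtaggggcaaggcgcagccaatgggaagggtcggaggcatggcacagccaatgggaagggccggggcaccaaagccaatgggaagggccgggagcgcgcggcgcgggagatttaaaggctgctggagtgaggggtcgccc
TK1: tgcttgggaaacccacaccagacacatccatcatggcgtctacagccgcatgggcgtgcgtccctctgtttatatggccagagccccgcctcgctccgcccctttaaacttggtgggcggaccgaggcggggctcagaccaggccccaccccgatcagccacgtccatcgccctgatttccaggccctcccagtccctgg
The positions are MCM6 at chr2:135876444-135876643 on the minus strand, MCM7 at chr7:100101398-100101597 on the minus strand, CDT1 at chr16:88803589-88803788 on the plus strand, E2F1 at chr20:33686386-33686585 on the minus strand, POLA1 at chrX:24693718-24693917 on the plus strand, RFC3 at chr13:33817949-33818148 on the plus strand, TYMS at chr18:657453-657652 on the plus strand, ORC6 at chr16:46689459-46689658 on the plus strand, RRM2 at chr2:10122539-10122738 on the plus strand, TK1 at chr17:78187205-78187404 on the minus strand. MCM6 holds 4 matches, in 2 places where a word and the reverse complement of another overlap. MCM7 and E2F1 hold 2 matches each, and CDT1, POLA1, RFC3 and TYMS hold 1 each. ORC6, RRM2, TK1 and, not printed, RFC1 and RFC2 hold 0 in the window. RefSeq promoters of 300 bases, 250 before the start and 50 after it, were matched for 36 of the 41 members. MCM4, MCM5, GINS4, RPA2 and CCNE2 were not matched. An E2F word was found in 18 of the 36 (50%), compared with 4.46% of the promoters of 15298 protein-coding genes and 3.33% of all 27305 promoters in the table. The letters CCAAT, a word bound by the NF-Y factor, were found on either strand in 23 of the 36 (63.9%), in 36.6% of promoters of protein-coding genes and in 35.7% of all. A match is a description of the letters only.

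The libraries did not separate by label alone. Control replicates 1 and 2 lay at 110 on the first principal component of log2 CPM, which held 58.2% of the variance, and the other 7 libraries lay between -46.4 and 3.15. The correlation of control replicate 3 was 0.969 to 0.987 to the BD and NBD libraries but 0.918 to control replicate 1 and 0.922 to control replicate 2 (Pearson, across genes, which are not independent replicates). For this reason the control libraries are given singly throughout, and results against control are given with and without control replicate 3. All 12 keratinocyte markers, among them KRT5, KRT14, KRT15 and TP63, were at 1 CPM or more in every library, with a summed level of 3523 to 5560 CPM, where CPM is the count scaled to a common library total. Single markers were not uniform. KRT15 had 27.1 and 27.3 CPM in control replicates 1 and 2 and 285 to 446 CPM in the other 7 libraries. KRT5 went the other way, at 1012 and 1241 CPM against 323 to 720 CPM, while KRT14 and TP63 overlapped. The marker sums of other cell types were 0.766 to 5.24 CPM for fibroblasts, with THY1 at 0 throughout, 2.85 to 5.63 CPM for melanocytes, 0.673 to 7.13 CPM for leukocytes, and 1.85 to 18.9 CPM for endothelium. The share of counts from mitochondrial rRNA was 17.3% to 22.3% in BD, 26.8% to 28.9% in NBD, 12.3% and 11.9% in control replicates 1 and 2, and 20.7% in control replicate 3.

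The replication genes were all expressed in both sorted populations, over a wide range of levels. Levels of different genes are compared here as CPM per kilobase of merged exon, averaged over the 6 sorted libraries. PCNA, the sliding clamp, was highest, at 202 CPM per kilobase (range 167 to 241 over the 6 libraries), and did not overlap with any other member. Next came the helicase subunit MCM7 at 90.0 (77.8 to 104), the large subunit of ribonucleotide reductase RRM1 at 81.9 (67.4 to 96.3), MCM2 at 72.2 (46.4 to 91.8) and MCM4 at 65.2 (55.0 to 75.5), whose ranges overlap from each to the next. At the low end were the cyclins CCNE1 at 3.21 (2.43 to 4.07) and CCNE2 at 3.26 (2.56 to 4.25), and POLE, the catalytic subunit of the leading-strand polymerase, at 4.68 (2.19 to 7.57), again with ranges that overlap. The 6 MCM subunits are present in the loaded ring in equal number, and their RNAs were not equal on this scale. MCM3 stood at 56.6 (51.2 to 62.3), while MCM6 stood at 23.7 (21.0 to 25.8) and MCM5 between 12.8 and 26.7, so that the ranges of MCM6 and MCM5 lay wholly below those of the other 4 subunits. Merged exon length counts every annotated isoform, which lowers the value of genes with long rare exons. In GENCODE 29, 22 of the 41 members overlap another gene model, 18 of them one on the other strand, and the sources used here do not say whether the counting kept strands apart. Examples are MCM2 with TPRA1, MCM7 with AP4M1, RFC4 with EIF4A2, TYMS with ENOSF1 and TYMSOS, CCNE2 with INTS8 and NDUFAF6, and RRM1 with RRM1-AS1. GINS2, GINS3, RFC3, RFC5, POLA1, RPA1, CHAF1A and CLSPN also have a partner on the other strand. The counts of all such members may hold reads of the partner.

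**Figure D1:**
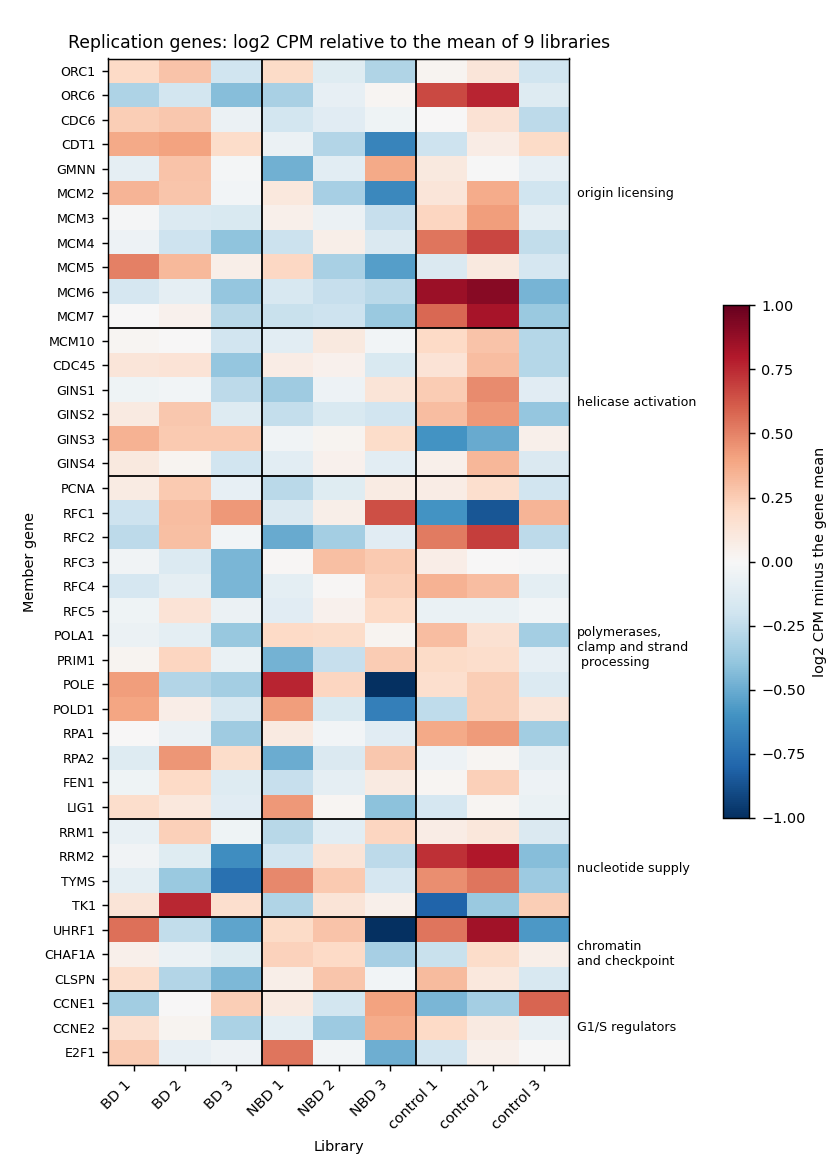
Level of each of the 41 genes (rows, grouped by role) in each of the 9 libraries (columns), as the log2 difference of normalised CPM from the mean of that gene over the 9 libraries. Red is above and blue below that mean, with the colours at their limit from a difference of 1 on, and control replicates 1 and 2 stand out from control replicate 3 in MCM4, MCM6, MCM7, ORC6, RRM2 and, in the other direction, in TK1, RFC1 and GINS3.

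Between the 6 sorted libraries most members varied by less than 2-fold. The highest and the lowest sorted library differed by less than 1.5-fold for 20 of the 41 members and by less than 2-fold for 33. The shares over all genes were not computed, so these counts are not read as a trait of the members. Only POLE, at 3.45-fold, and UHRF1, which recruits maintenance methylation to newly copied DNA, at 3.05-fold, reached 3-fold. The clamp loader subunit RFC5 was among the steadiest members at 1.24-fold. The coefficient of variation between replicates had a median over members of 12.9% in BD, 14.9% in NBD and 17.3% in control (n = 3 each). Over the 10456 genes tested with a mean of at least 5 CPM it was 12.6%, 20.1% and 19.2%.

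BD was compared with NBD to ask whether the sorted populations differ in their replication programme. No member changed in edgeR's quasi-likelihood test at an adjusted p under 0.05. The same test called 3 of all 16921 genes (0.0177%), so the 0 of 41 members says little by itself. The median log2 fold change of the members was 0.01, with 21 above 0 and 20 below, and that of all genes was -0.02. At an unadjusted p under 0.05 there were 3 members, or 7.32% of members against 5.86% of all genes. CDT1 and MCM5 were higher in BD, a direction held by 2.04% of all genes at that limit, and RFC3 was lower, as were 3.82%. DESeq2 called 0 members as well and 0.343% of all genes, with a smallest adjusted p among members of 0.288. The 95% interval of the difference lay within 2-fold in either direction for 35 of the 41 members (85.4%), compared with 50.8% of all genes. This share is not particular to the members. It was 88.7% for 62 other replication genes and 76.7% for 30 genes of G2 and mitosis, lists described further on. The median SE was 0.22 over the members and 0.32 over all genes. The 6 other members, TYMS, POLE, UHRF1, TK1, MCM2 and CDT1, have intervals that reach beyond 2-fold on one side only.

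**Figure D2:**
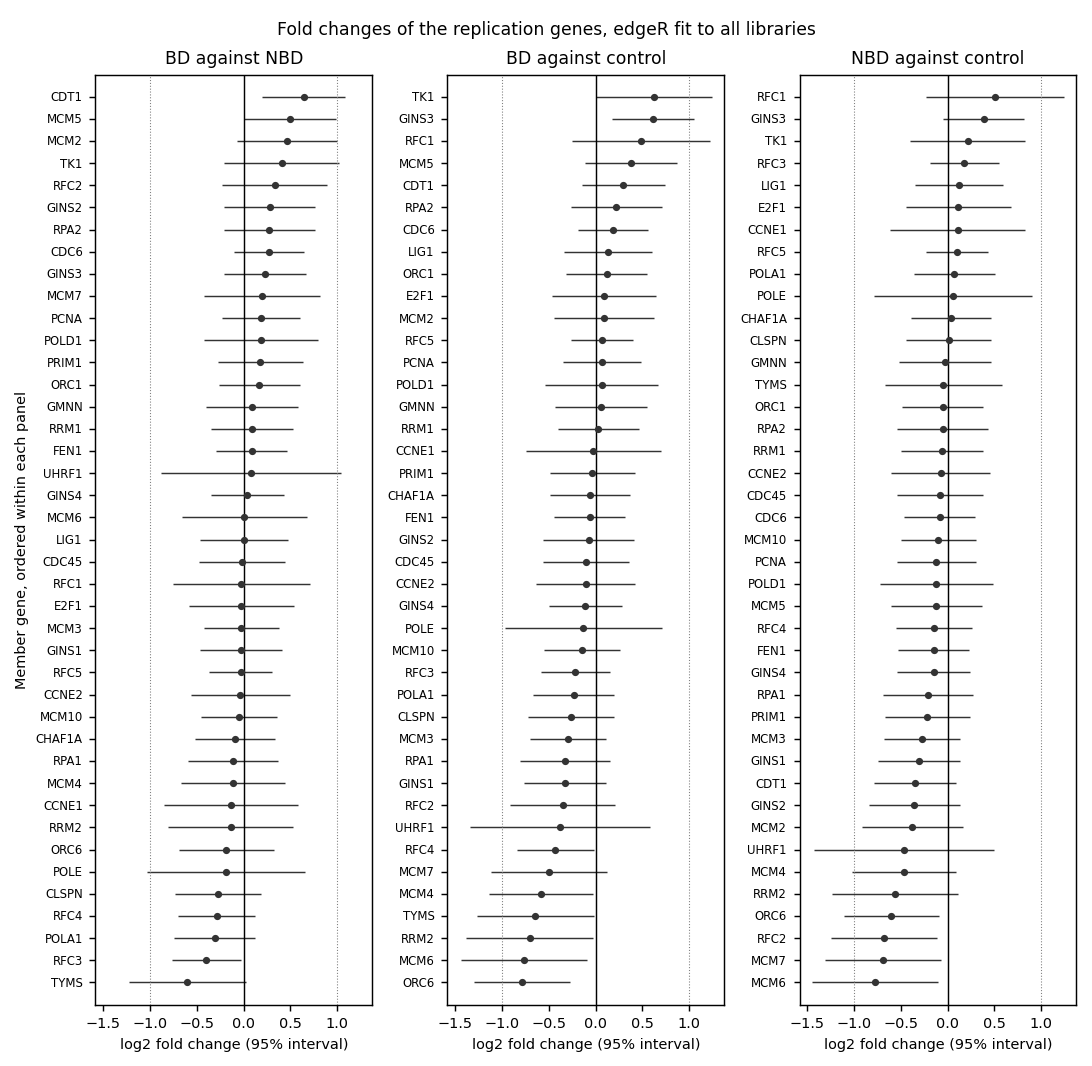
Log2 fold change of each of the 41 genes (x axis) in the 3 comparisons, in a panel each and ordered by value, with bars for the 95% interval of edgeR's fit of all 9 libraries and dotted lines at a 2-fold difference. The BD against NBD values run from -0.60 for TYMS to 0.64 for CDT1 around 0, while most points of NBD against control, 29 of 41, lie below 0.

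Origin licensing held the 3 largest positive values of this comparison. CDT1, the loading factor for the MCM ring (GRCh38 chromosome 16, 88803213 to 88809258, plus strand), stood at 35.8, 36.3 and 31.3 CPM in the BD libraries, at 26.4, 22.4 and 17.4 CPM in the NBD libraries and at 23.8, 28.99 and 31.4 CPM in the control libraries. All 3 BD libraries were above all 3 NBD libraries. The log2 fold change of CDT1 was 0.64 ± 0.20 (SE, 95% interval 0.20 to 1.08, adjusted p = 0.772 by edgeR with Benjamini-Hochberg adjustment). MCM5 (chromosome 22, 35400063 to 35425430) stood at 196, 173 and 144 CPM in BD, at 160, 111 and 94.3 CPM in NBD and at 125, 148 and 123 CPM in control. NBD replicate 1 lay above BD replicate 3, so the groups overlap, and the log2 fold change was 0.50 ± 0.22 (adjusted p = 0.814). MCM2 (chromosome 3, 127598223 to 127622436) showed the same order, with 450, 431 and 350 CPM in BD, 382, 282 and 227 CPM in NBD and 386, 460 and 310 CPM in control, and a log2 fold change of 0.47 ± 0.24 (adjusted p = 0.814). NBD replicate 3 held the lowest value of all 9 libraries for CDT1, MCM2 and MCM5 alike. Without it the log2 fold changes were 0.51, 0.31 and 0.35.

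The other MCM subunits differed less between the sorted groups. The log2 fold changes were 0.20 ± 0.28 for MCM7, 0.01 ± 0.30 for MCM6, -0.02 ± 0.18 for MCM3 and -0.12 ± 0.25 for MCM4. CDC6, the ATPase that recruits CDT1 and the ring to origins, stood at 133, 135 and 108 CPM in BD, 99.0, 104 and 109 CPM in NBD and 113, 124 and 93.6 CPM in control. BD replicate 3 was level with the NBD libraries, and the log2 fold change was 0.27 ± 0.17. For ORC1 and GMNN it was 0.17 ± 0.20 and 0.09 ± 0.22, and for ORC6 it was -0.18 ± 0.23. In all, 8 of the 11 licensing genes were above 0, with a median of 0.17.

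Among helicase activators, CDC45 stood at 65.7, 66.3 and 46.0 CPM in BD, 63.5, 62.0 and 54.2 CPM in NBD and 66.3, 74.8 and 49.6 CPM in control. The sorted groups overlap, and the log2 fold change was -0.01 ± 0.21. The 4 GINS subunits work as a single complex, and their log2 fold changes were 0.28 ± 0.22 for GINS2, 0.23 ± 0.20 for GINS3, 0.04 ± 0.18 for GINS4 and -0.03 ± 0.20 for GINS1. GINS2 and GINS3 had all BD libraries above all NBD libraries. MCM10, which takes part in activating the helicase, was at -0.05 ± 0.18. All 6 activators had an interval within 2-fold.

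Among polymerases and clamp factors, 7 of 14 were above 0 and 7 below, with a median of -0.01. PCNA stood at 313, 355 and 280 CPM in BD, 245, 273 and 313 CPM in NBD and 312, 333 and 259 CPM in control, and the groups overlap. RFC3, a small subunit of the clamp loader (chromosome 13, 33818049 to 33966558), stood at 53.6, 49.7 and 39.9 CPM in BD, 55.3, 67.6 and 65.5 CPM in NBD and 57.3, 54.8 and 54.2 CPM in control. Every BD library was below every other library for RFC3, and the log2 fold change to NBD was -0.40 ± 0.17 (95% interval -0.76 to -0.03, edgeR adjusted p = 0.814). POLA1, the catalytic subunit of polymerase alpha, was at 103, 99.8 and 82.3 CPM in BD and at 123, 121 and 109 CPM in NBD, with no overlap and a log2 fold change of -0.31 ± 0.19 (adjusted p = 0.833). Its values in control were 132, 118 and 84.5 CPM. Of the 5 clamp loader subunits RFC2 stood highest, at 0.33 ± 0.25, followed by RFC1 at -0.02 ± 0.33, RFC5 at -0.03 ± 0.15, RFC4 at -0.29 ± 0.18 and RFC3.

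Nucleotide supply held values in both directions. TYMS, thymidylate synthase, which makes dTMP from dUMP (chromosome 18, 657604 to 673578), stood at 21.4, 17.8 and 13.7 CPM in BD, 32.1, 27.6 and 20.4 CPM in NBD and 31.7, 33.2 and 17.8 CPM in control. BD replicate 1 lay just above NBD replicate 3, and the log2 fold change was -0.60 ± 0.28 (95% interval -1.22 to 0.03, edgeR adjusted p = 0.814). TK1, thymidine kinase, which makes dTMP from salvaged thymidine, stood at 104, 160 and 107 CPM in BD, 77.1, 104 and 98.1 CPM in NBD and 54.5, 73.2 and 113 CPM in control. The log2 fold change of TK1 was 0.41 ± 0.28 (adjusted p = 0.845), and the nearest BD and NBD libraries were almost level. RRM2, the small subunit of ribonucleotide reductase, was at 104, 98.3 and 69.3 CPM in BD and 93.3, 116 and 88.9 CPM in NBD, and RRM1 was at 0.09 ± 0.20 on the log2 scale.

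Chromatin and checkpoint genes and the G1 to S regulators overlapped between the sorted groups. UHRF1 stood at 68.1, 39.3 and 32.2 CPM in BD, 53.2, 56.5 and 22.3 CPM in NBD and 67.4, 83.4 and 31.3 CPM in control. Replicates of 1 group thus differed more than the groups did, and the log2 fold change was 0.08 ± 0.43. CLSPN, an adaptor of the replication checkpoint, and CHAF1A, a subunit of the histone chaperone CAF-1, were at -0.27 ± 0.21 and -0.09 ± 0.19. CCNE1 stood at 6.18, 7.89 and 9.31 CPM in BD, 8.37, 6.91 and 10.4 CPM in NBD and 5.72, 6.22 and 11.8 CPM in control. CCNE2 stood at 16.2, 14.7 and 11.6 CPM in BD, 13.6, 11.2 and 18.7 CPM in NBD and 16.7, 15.4 and 13.8 CPM in control. E2F1 stood at 25.8, 20.5 and 20.9 CPM in BD, 31.4, 21.3 and 15.5 CPM in NBD and 19.0, 22.5 and 21.5 CPM in control. The log2 fold changes of these 3 regulators lay between -0.13 and -0.02, and their intervals lay within 2-fold.

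In total, BD lay wholly above NBD for 4 members, CDT1, GINS2, GINS3 and TK1, or 9.76% against 7.19% of all genes. BD lay wholly below NBD for 2 members, POLA1 and RFC3, or 4.88% against 7.36% of all genes. Both shares are near the background.

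The base composition of the transcripts moved with these differences. Across the 41 members the log2 fold change of BD against NBD correlated with the GC content of the longest transcript at r = 0.44, and across 12588 protein-coding genes at r = 0.28 (Pearson, across genes of the same 6 libraries, given as a description). CDT1 has a GC content of 64.9%, TK1 62.8%, MCM2 58.1% and MCM5 57.0%, while TYMS has 49.8%, POLA1 42.9% and RFC3 39.1%, around a median of 48.2% over the members. By library, the deviation of the members from their mean correlated with GC content at -0.69 in NBD replicate 3, 0.44 in NBD replicate 1 and 0.45 in BD replicate 1, and between -0.29 and 0.21 in the other 6. The protein-coding genes gave -0.42 in NBD replicate 3. Transcript length moved with the same libraries. The deviation of the members correlated with log2 length at 0.45 in BD replicate 1, -0.31 in BD replicate 2, 0.49 in NBD replicate 1 and -0.45 in NBD replicate 3. In the rest it was between -0.19 and 0.22. The protein-coding genes gave 0.14, -0.36, 0.27 and -0.25 in these named libraries. The part of base composition or length in the differences between BD and NBD was not tested.

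**Figure D3:**
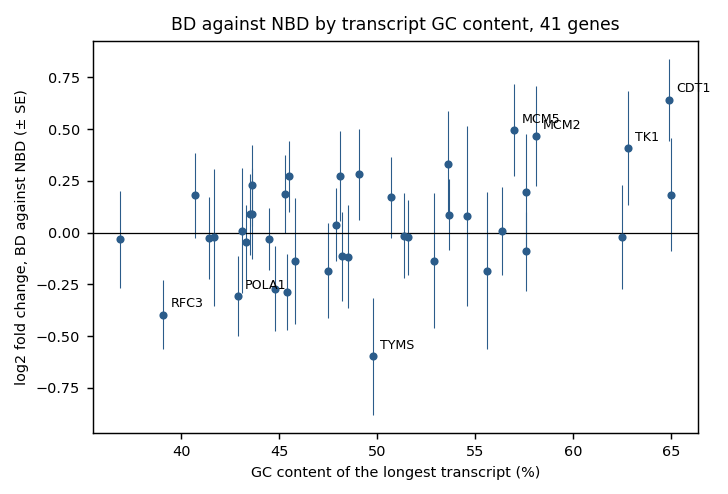
GC content of the longest transcript of each of the 41 genes (x axis, percent) against its log2 fold change in BD against NBD (y axis). CDT1, MCM2, MCM5 and TK1 sit at upper right and RFC3 and POLA1 at lower left, with r = 0.44 over the 41 points.

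BD was next compared with the libraries labelled as the cell line. With all 9 libraries no member changed by edgeR at an adjusted p under 0.05, and neither did any of the 16921 genes (0%). DESeq2 called 0 members and 0.987% of all genes, with a smallest adjusted p among members of 0.0942. At an unadjusted p under 0.05 there were 8 members, or 19.5% against 13.8% of all genes. Of these 2 were higher in BD (4.88% against 4.73%) and 6 lower (14.6% against 9.06%). The median log2 fold change was -0.07, with 16 members above 0 and 25 below, and that of all genes was 0.03. NBD against control, which shares the control libraries, gave 0 members and 0 genes (0%) by edgeR, and 0 members and 0.177% of all genes by DESeq2. At an unadjusted p under 0.05 there were 4 members, or 9.76% against 9.13% of all genes. All 4 were lower in NBD (against 5.08% of all genes) and 0 were higher (against 4.05%). Its median was -0.10, with 12 members above 0 and 29 below, and all 11 licensing genes were below 0. Against control replicate 3 alone, 6 of these 11 were above 0 and 5 below, with a median of 0.05.

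The control libraries were far apart for the members with the largest values. MCM6 (chromosome 2, 135839626 to 135876426, minus strand) stood at 100, 106 and 86.6 CPM in BD, 101, 96.5 and 93.8 CPM in NBD, and 204, 212 and 81.7 CPM in control. Control replicates 1 and 2 were far above the rest, at 2.19 times the mean of the other 7 libraries, and control replicate 3 was the lowest library of all. ORC6, a subunit of the origin recognition complex (chromosome 16, 46689643 to 46698394), stood at 32.2, 35.1 and 29.7 CPM in BD, 31.9, 37.8 and 40.5 CPM in NBD, and 62.9, 67.7 and 36.5 CPM in control. Its log2 fold changes were -0.78 ± 0.23 for BD (edgeR adjusted p = 0.333) and -0.60 ± 0.23 for NBD (adjusted p = 0.539), and every BD library was below every control library. RRM2 stood at 177, 186 and 79.2 CPM in control, with log2 fold changes of -0.70 ± 0.30 for BD and -0.57 ± 0.30 for NBD. The value of control replicate 3 for RRM2 again lay within the range of the sorted libraries.

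MCM7 stood at 444, 455 and 366 CPM in BD, 380, 383 and 341 CPM in NBD, and 658, 783 and 342 CPM in control. RFC2, a small subunit of the clamp loader, stood at 61.0, 90.2 and 71.7 CPM in BD, 51.5, 57.8 and 67.6 CPM in NBD, and 105, 118 and 61.0 CPM in control. NBD against control gave -0.69 ± 0.28 for MCM7, -0.68 ± 0.26 for RFC2 and -0.77 ± 0.30 for MCM6 (edgeR adjusted p = 0.539 for each). For all 3 genes control replicates 1 and 2 were above every other library.

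A few members went the other way. GINS3 stood at 38.3, 36.1 and 36.1 CPM in BD, 29.3, 30.7 and 34.2 CPM in NBD, and 19.8, 21.2 and 31.1 CPM in control. All BD libraries were above all control libraries, with a log2 fold change of 0.61 ± 0.20 (edgeR adjusted p = 0.333), and NBD gave 0.38 ± 0.20 with overlap. RFC1, the large subunit of the clamp loader, stood at 153, 220 and 239 CPM in BD, 160, 184 and 277 CPM in NBD, and 117, 98.0 and 224 CPM in control, with log2 fold changes of 0.48 ± 0.33 for BD and 0.50 ± 0.33 for NBD. TK1 gave 0.62 ± 0.28 for BD (adjusted p = 0.360) and 0.21 ± 0.28 for NBD. Control replicates 1 and 2 were the lowest libraries of all for GINS3, RFC1 and TK1. In all, BD lay wholly above control for 1 member, GINS3 (2.44% against 8.05% of all genes), and wholly below for 2, ORC6 and RFC3 (4.88% against 7.72%). NBD lay wholly above or below control for 0 members, against 4.67% and 3.75% of all genes.

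**Figure D4:**
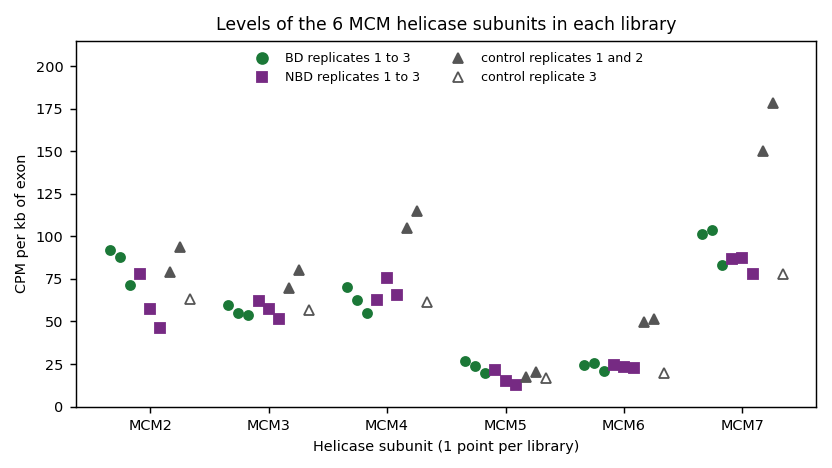
Level of MCM2 to MCM7 (x axis) in each of the 9 libraries, as CPM per kilobase of merged exon (y axis, from 0), with a point for each library and an open triangle for control replicate 3. Control replicates 1 and 2 (filled triangles) lie above the other 7 libraries for MCM3, MCM4, MCM6 and MCM7 and not for MCM2 and MCM5.

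Control replicates 1 and 2 were both above the other 7 libraries for 12 members, or 29.3% against 18.9% of all genes. The 12 were MCM3, MCM4, MCM6, MCM7, MCM10, ORC6, GINS1, GINS2, RFC2, RFC4, RPA1 and RRM2. Both were below the other 7 for 3 members, GINS3, RFC1 and TK1, or 7.32% against 21.6% of all genes. The median log2 ratio of these 2 libraries to the other 7 was 0.17 over the members and -0.06 over all genes. This skew is not particular to the members. Both libraries were above the other 7 for 32.3% of the 62 other replication genes and below for 6.45%. For the 30 genes of G2 and mitosis the shares were 33.3% and 0%, and for 58 histone genes 5.17% and 3.45%. These lists are described further on. MCM2 and MCM5 were not among the 12, although their partners in the ring were. Control replicate 3 lay within the range of the 6 sorted libraries for 36 of the 41 members. The share over all genes was not computed, so this count is not read as a trait of the members. Over all genes tested, control replicate 3 correlated with the sorted libraries at 0.969 to 0.987.

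Leaving out control replicate 3 gave calls in both comparisons. For BD against control 11 members were called by edgeR, 8 lower and 3 higher (26.8% against 24.3% of all 17755 genes then tested). The 8 that fell were MCM6, ORC6, RRM2, TYMS, MCM4, MCM7, RFC4 and RPA1, with log2 fold changes from -1.08 ± 0.17 for MCM6 to -0.52 ± 0.17 for RPA1. The 3 that rose were TK1 at 0.96 ± 0.25, RFC1 at 0.93 ± 0.28 and GINS3 at 0.85 ± 0.17. For NBD against control 8 members were called (19.5% against 18.2%). MCM6, MCM7, RFC2, RRM2, ORC6 and MCM4 fell, from -1.08 ± 0.17 for MCM6 to -0.68 ± 0.19 for MCM4, and RFC1 and GINS3 rose, at 0.97 ± 0.28 and 0.63 ± 0.17. The shares of members called are near those of all genes. Lower calls were 19.5% of members against 10.5% of all genes for BD and 14.6% against 6.56% for NBD, and higher calls were 7.32% against 13.8% and 4.88% against 11.6%, a description with no test of the list.

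When control replicate 3 stood alone for its group, with the spread estimated from BD and NBD, 0 members and 0 of 18832 genes (0%) were called by edgeR in either comparison. At an unadjusted p under 0.05 there were 0 members in each, against 1.1% of all genes for BD and 1.32% for NBD. The median log2 fold change of the members was then 0.13 for BD and 0.08 for NBD. MCM6 was at 0.25 and 0.24, so its direction against control depends on which control libraries are used.

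The wider replication pathway was described through 62 other genes, all tested, from the remaining origin recognition subunits to polymerase subunits, helicases and histone chaperones. In BD against NBD edgeR called 0 of them, against 0.0177% of all genes. At an unadjusted p under 0.05 there were 5 (8.06%, against 5.86% of all genes), and 23 were above 0 and 39 below (median -0.06). ASF1B, a chaperone that hands new histones to CAF-1, stood at 55.8, 53.2 and 47.8 CPM in BD, 36.2, 27.7 and 29.9 CPM in NBD and 37.3, 44.0 and 45.8 CPM in control. All BD libraries were above the other 6, and the log2 fold change to NBD was 0.74 ± 0.17 (edgeR adjusted p = 0.50). DESeq2 called this gene alone among the 62 (1.61%, against 0.343% of all genes, adjusted p = 0.0288). E2F2, an activating E2F factor, was at 0.67 ± 0.38 and TICRR, which helps to load CDC45, at -0.49 ± 0.35, both with groups that overlap.

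Against control, 0 of the 62 were called for BD or NBD with all libraries by edgeR or DESeq2, with 10 (16.1%, against 13.8% of all genes) and 6 (9.68%, against 9.13%) at an unadjusted p under 0.05. Without control replicate 3, 13 were called for BD, 2 higher and 11 lower, or 21.0% of the list against 24.3% of all genes. For NBD 8 were called, 3 higher and 5 lower, or 12.9% against 18.2%. Both pooled shares are below the background, but the directions differ. Lower calls were 17.7% of the list against 10.5% of all genes for BD and 8.06% against 6.56% for NBD. Higher calls were 3.23% against 13.8% for BD and 4.84% against 11.6% for NBD, a description with no test of the list. POLD3, a subunit of polymerase delta, had 36.9 CPM in control replicate 1 and 36.3 CPM in control replicate 2, while the other 7 libraries ranged from 71.7 to 83.6 CPM. In that fit it rose by 1.07 ± 0.17 for BD and 1.11 ± 0.17 for NBD on the log2 scale (edgeR adjusted p = 0.00170 and 0.00177). MCMBP, which binds MCM proteins, had 198 and 209 CPM in this pair of control libraries and 93.1 to 114 CPM in the other 7, and fell by 1.00 ± 0.17 and by 0.97 ± 0.17. CDCA7, a Myc-responsive gene that acts with the chromatin remodeller HELLS, stood at 125 and 119 CPM in these control libraries and at 52.2 to 69.0 CPM in the other 7, and fell by 1.04 ± 0.17 and by 0.92 ± 0.17.

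Genes of later cell cycle stages were read the same way. Of 30 genes of G2 and mitosis, 25 were below 0 in BD against NBD, with a median log2 fold change of -0.40. All BD libraries were below all NBD libraries for 12 of the 30 (40%, against 7.36% of all genes), 11 had an unadjusted p under 0.05, all lower (36.7%, against 3.82% of all genes), and 0 were called by edgeR. With no filter on low counts edgeR called 3 of the 30 (10%, against 0.333% of the 39344 genes then tested). Calls over all genes also rose in that setting, to 131 from 3, and in BD against control to 1162 from 0. The 3 calls thus depend on the filter. DESeq2 called 1 of the 30 (3.33%, against 0.343% of all genes), KIF23, a kinesin of cytokinesis named here after its values were seen. KIF23 stood at 152, 144 and 125 CPM in BD, 216, 234 and 214 CPM in NBD and 162, 153 and 167 CPM in control. MKI67, which codes for the proliferation marker Ki-67, stood at 260, 146 and 135 CPM in BD, 488, 646 and 224 CPM in NBD and 591, 486 and 258 CPM in control. NBD replicate 3 lay below BD replicate 1, and the log2 fold change was -1.33 ± 0.43 (edgeR adjusted p = 0.798, and 0.000474 with no filter). The SE of MKI67 with no filter was 0.26, so its small adjusted p rests on that setting. The mean log2 deviation of the 30 genes was -0.18, -0.16 and -0.43 in the BD libraries and 0.05, 0.26 and 0.16 in the NBD libraries, and that of the 41 replication genes was 0.06, 0.08 and -0.17 and then -0.04, -0.04 and -0.11. The first list kept the sorted groups apart and the second did not, and the difference between the lists was not tested.

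Histone genes that are expressed with DNA replication were read as a further list. Their mRNAs end without a poly(A) tail, so they are retained by libraries made from rRNA-depleted total RNA. Of 69 such genes 58 were tested, and edgeR called 0 in BD against NBD, against 0.0177% of all genes. By edgeR 0 had an unadjusted p under 0.05, against 5.86% of all genes. DESeq2 called 0 as well, against 0.343%. With no filter on low counts edgeR called 2 of the 69, both lower in BD (2.90%, against 0.333% of the 39344 genes then tested). The summed level of the list was 7540, 15800 and 11000 CPM in BD, 5870, 10100 and 15000 CPM in NBD and 8530, 10700 and 11300 CPM in control. Each group thus spanned a range that overlaps both others, and the lowest and the highest library of the list were NBD replicate 1 and BD replicate 2. BD replicate 1 and NBD replicate 1, the lowest of their groups for histones, were not the lowest for the 41 replication genes.

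**Figure D5:**
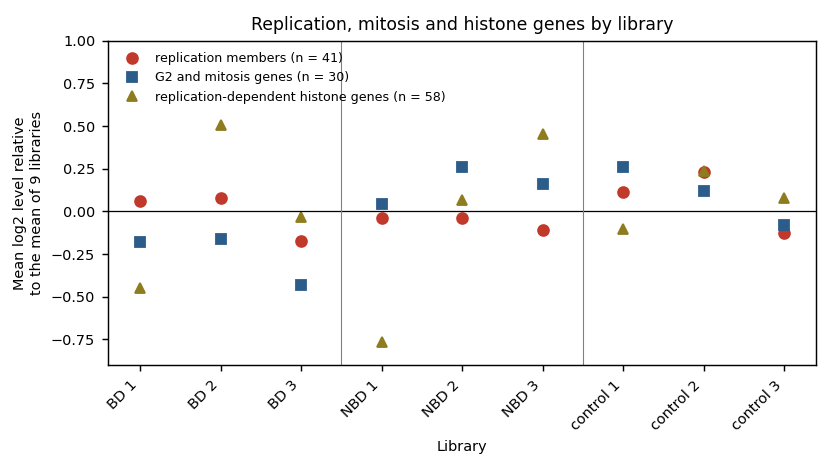
Mean log2 deviation from the mean of the 9 libraries (y axis) for the 41 replication genes, the 30 genes of G2 and mitosis and the 58 histone genes, in each library (x axis). The BD points lie below the NBD points for G2 and mitosis, while the groups overlap for the replication and the histone genes.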

How the data were processed

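RNA of 9 HaCaT libraries was sequenced from stranded, rRNA-depleted total RNA, per the labels' protocols, which name a pair of RNA kits without saying which library came from which. The authors deposited raw counts of reads for each gene, with no scaling. Reads went through FastQC 0.74, Trimmomatic 0.39, STAR 2.7.11b and featureCounts on GRCh38, per the submitters' processing notes. The sources used here give no annotation release, strand setting or rule for multiply matched reads, so genes with overlapping or near-identical partners have uncertain counts. Groups came from the sample titles.

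Genes were filtered with filterByExpr and scaled by TMM in edgeR 4.0.16 (R 4.3.3). A single quasi-likelihood fit of the 9 libraries with a term per group, leaving 6 residual degrees of freedom, gave the 3 comparisons. Tests were two-sided. P-values were adjusted by Benjamini-Hochberg over the 16921 genes that passed, with a threshold of 0.05 for a call. The SE of a log2 fold change is its size over the root of the F statistic, and its 95% interval uses the degrees of freedom of the fit. Library means of log2 CPM carry a pseudocount of 0.5. Precision is set by the 3 libraries per group and by totals of 17128797 to 29512856 counts. Replicates differed beyond counting noise in every pair, with a mean chi-square per gene of 15.0 to 192, so none was counted as a duplicate.

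IDs were paired with symbols through a gene name table (61458 IDs) and GENCODE 29, which gave 61512 IDs a symbol in all and also gave types, exon lengths and coordinates. Promoters came from a RefSeq table on GRCh38.p14. Gene levels are comparable between genes only per kilobase. Alternatives were other size factors, DESeq2 1.42.0, no filter, a filter of 1 CPM in 3 libraries, the 6 libraries compared alone, a replicate block, leaving out each library, and control replicate 3 alone. The code was tested on simulated data. All 41 members may be named. Library values are given for 12 fixed members and for the 3 largest and the 3 smallest log2 fold changes of each comparison, and a few other genes are given beside them. The members, lists and rules were chosen with earlier results of these data known. Figures used matplotlib 3.10.9 (Python 3.11.15).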

Additional observations from a re-analysis of the deposited data

How the results depend on the processing

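In BD against NBD, 3 genes were called in all, compared with 5 in a fit of the 6 libraries alone, 8 with upper-quartile scaling, 58 with DESeq2, 131 with no filter and 0 to 16 when single libraries were left out. The members called were 0 in each of these. The median log2 fold change of the members ran from -0.03 to 0.10 when single libraries were left out. It was lowest without BD replicate 2, with 17 members above 0 and 24 below. The highest median came without BD replicate 3, with 29 above 0 and 12 below. In BD against control the 0 genes called became 167 with DESeq2, 1162 with no filter and 0 to 4317 without single libraries, and in NBD against control 30, 594 and 0 to 3228. The members called ran from 0 to 11 and from 0 to 8 without single libraries, and only leaving out control replicate 3 gave any. When control replicate 3 stood alone for its group, the median of the members turned to 0.13 for BD and 0.077 for NBD. For BD, MCM6 then turned to 0.25, RRM2 to 0.19 and RFC1 to -0.14, and for NBD, MCM6 turned to 0.24, MCM7 to 0.093, TK1 to -0.29 and RFC1 to -0.12. TK1 in NBD against control ranged from -0.0012 to 0.56 without single libraries, below 0 only without control replicate 1. The causes were not tested.

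The labels do not say whether libraries of the same replicate number belong together, and the correlations of their deviations leave it undecided. Same-numbered pairs ran from 0.036 to 0.612, all positive, and differently numbered pairs from -0.566 to 0.421. Not every library correlated best with its own number. BD replicate 2 was at 0.421 with NBD replicate 3 and 0.0684 with NBD replicate 2. With the replicate number as a block 0 genes and 0 members were called in BD against NBD, with medians of 0.01, -0.06 and -0.09 over the members in the 3 comparisons. In BD against NBD the median SE over the members was 0.19 with the block and 0.22 without it. At an unadjusted p under 0.05 by edgeR the block gave 5 members, or 12.2% against 8.57% of all genes. Each library holds at least 111 counts for each member, so the spread between 3 libraries, more than depth, limits what these comparisons can show.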

Other observations

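A histone gene outside the members, H3C3, one of several near-identical copies of histone H3 and so of uncertain count, had 102 CPM in control replicate 1 and 127 CPM in control replicate 2. It stood at 8.32 CPM in NBD replicate 2 and at 0.151 to 0.942 CPM in the other 6 libraries, control replicate 3 included. NBD replicate 2 was also the sorted library nearest to control replicates 1 and 2 on the first principal component, at 3.15, where the other sorted libraries lay between -46.4 and -24.5. The gene was named after its values were seen, and for BD against control with all libraries DESeq2 called it at an adjusted p of 0.00962 where edgeR gave 0.333.

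RNASEH2A, the catalytic subunit of RNase H2, which removes ribonucleotides from DNA, was nearly silent in the counts, at 0.118 to 1.07 CPM over the 9 libraries. RNASEH2C, another subunit of the same enzyme, had 22.5 CPM in control replicate 1, 28.9 CPM in control replicate 2 and 40.5 to 55.8 CPM in the other 7.

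CDK1, the kinase that drives entry into mitosis, also named after its values were seen, stood at 64.1, 75.3 and 65.5 CPM in BD, 70.2, 105 and 122 CPM in NBD and 206, 177 and 94.0 CPM in control. Every BD library lay below every control library, and DESeq2 called the difference at an adjusted p of 0.0214 where edgeR gave 0.333. CDK1 is one of the 30 genes of G2 and mitosis. DESeq2 also called CENPA of that list in BD against control, lower at an adjusted p of 0.0489, where it called 0.987% of all genes. All BD libraries lay below all control libraries for 11 of the 30 (36.7%, against 7.72% of all genes).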
